A study of Triticum aestivum with 8 samples.

Results

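The probes described here had high signal in the crown and low signal in the leaf of a synthetic hexaploid wheat line, at 24 °C and again after weeks at 4 °C. They were selected on measured values: a probe had to be well above background on all 8 arrays, its mean level in crown had to exceed that in leaf by at least 6 on the log2 scale (64-fold) at each temperature, and its mean level at 4 °C had to lie within 1 (2-fold) of that at 24 °C in each tissue. A level is the log2 processed signal minus the 75th percentile of its array. Of 37826 probes on the array, 24596 met the first condition, 12180 of these kept both cold changes within 1, and 73 met the whole rule. Because the rule used the tissue and the cold contrasts of every array, the values of these contrasts are given as a description, with no test.

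Leaf samples ("leaf of 24C", first leaf) and crown samples ("crown of 24C", shoots with the shoot apical meristem) were taken from plants that had grown at 24 °C for 3 weeks. In the cold groups 4 °C followed, for 12 weeks before leaf and for 6 weeks before crown was taken, so cold leaf and cold crown tissue differed in plant age from each other and from their controls. Each of the 4 groups had 2 arrays (n = 2 throughout), which limits the precision of all values, and all groups share the same wheat line. The design text calls the arrays of a group independent experiments and does not say how many plants each held.

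The crown is the base of the shoot, where the apical meristem, young leaf bases and stacked stem nodes lie close to the soil and from which the crown roots grow. It is the organ whose survival carries a winter cereal through frost, since new leaves regrow from it, and the meristem in it is where long cold is sensed for flowering, the process called vernalization. The leaf blade, in contrast, is mature photosynthetic tissue.

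The files used here name each probe after a contig or clone and pair none of the 73 with a gene or a sequence. No other probe of the 73 contigs or clones was found by name once a trailing position number was removed. Names that differ by a leading r, or by F in place of R, were not matched to each other. None of the 73 names was found in the RefSeq gene table of the Chinese Spring assembly, and none was a gene symbol or sequence accession. Genes that mark crown or leaf could therefore not be looked up: 6 of the listed marker genes matched a probe name, none of them a crown or leaf marker, and 1 of the 6 passed the detection flag on every array. The free-text description of the crown controls speaks of leaves, against their titles and tissue entries. Across the 24596 probes, which share arrays and are not independent replicates, the correlation of these arrays was 0.872 to 0.877 with cold crown, and 0.650 to 0.654 with control leaf. Scan days differed between all groups, and a separate scanner read the control leaf arrays, so that neither tissue nor temperature can be told apart from scan day. The version of the scanner software also differed between 24 °C and 4 °C in each tissue, and between the tissues at 24 °C. Neither temperature nor, at 24 °C, tissue can be told apart from this version. These are bulk samples, in which fewer cells of a type and less RNA per cell cannot be told apart.

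In crown the 73 probes lay among the brightest on the array, with a median level of 4.62 and 4.56 on the control arrays and of 5.08 and 5.05 on the cold arrays. These medians correspond to the 97.8th and 97.7th percentile of all probes at 24 °C and to the 98.4th on both arrays at 4 °C. The lowest member in crown still stood at the 80.6th percentile. The rule favours high crown levels, since it asked for a detected leaf signal and at least 6 more in crown. In leaf their medians were -4.21 and -4.20 at 24 °C and -4.05 and -3.97 at 4 °C, at the 38.1th to 42.6th percentile. Crown and leaf arrays did not overlap for any member: the lowest crown array exceeded the highest leaf array by 5.58 to 10.34 on the log2 scale, with a median of 7.88. The limits of the rule on the tissue and cold contrasts largely set this gap. Of the 24596 probes well above background on all arrays, 27.2% also had every crown array above every leaf array.

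Some of the leaf levels at 24 °C lay near the limit of detection. The dimmest spots that passed the detection flag stood at -6.35 and -6.04 in control leaf and at -7.89 and -8.19 in cold leaf. At 24 °C, 8 and 10 of the 73 probes lay within 1 of that limit, with a median gap of 2.14 and 1.84, and at 4 °C none did, with a median gap of 3.84 and 4.23. The error that the scanner software gives for a spot had a median of 11.2% and 11.8% of the signal in control leaf, 10.1% in cold leaf and 10% in crown, and reached at most 21.6%. No member was saturated or flagged as an outlier on any array. With no detection filter, 153 probes met the other conditions, so that a larger number of probes had the same crown pattern with leaf signals that were not well above background throughout.

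Crown exceeded leaf by a median of 8.36 at 24 °C (329-fold; range 6.01 to 10.45) and by 8.73 at 4 °C (424-fold; range 6.01 to 11.57). Over the 24596 probes the same medians were -0.02 and 0.05. The difference was larger at 4 °C than at 24 °C for 50 of the 73 (68.5%), by a median of 0.49 over all members, with a range from -1.32 to 1.79. It was also larger at 4 °C for 57.9% of the 24596 probes, with a median of 0.23. Among the 12180 probes with both cold changes within 1 the share was 55.7% and the median 0.10.

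Ranked by the smaller of the differences at 24 °C and 4 °C, the widest separation was that of clone MUG002A03R990520. Its levels in leaf were -5.93 and -5.78 at 24 °C and -6.34 and -6.70 at 4 °C, and in crown 4.62 and 4.56 at 24 °C and 5.11 and 4.99 at 4 °C. Crown was thus higher by 10.45 (1396-fold) at 24 °C and by 11.57 (3039-fold) at 4 °C. On both control leaf arrays this clone was the dimmest member, only 0.41 and 0.26 above the detection limit, which limits the precision of its fold at 24 °C. It did not meet the rule with a normexp background correction and the 75th percentile.

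Contig wheat0130Contig9639 showed leaf levels of -5.57, -5.42 (24 °C), -5.73 and -5.58 (4 °C) and crown levels of 4.28, 4.27 (24 °C), 4.84 and 5.04 (4 °C). For MUG008B04R990628 the leaf arrays gave -4.47, -4.66 (24 °C), -4.77 and -4.61 (4 °C) and the crown arrays 5.22, 5.16 (24 °C), 5.65 and 5.72 (4 °C). In both probes the crown arrays at 4 °C lay above those at 24 °C. Their tissue differences were 9.77 and 9.76 at 24 °C and 10.59 and 10.37 at 4 °C.

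With leaf levels of -4.16, -3.77 (24 °C), -4.86 and -4.92 (4 °C) and crown levels of 5.53, 5.54 (24 °C), 6.32 and 6.35 (4 °C), wheat0130Contig67 went apart between the tissues in the cold. The tissue difference was 9.50 (725.5-fold) at 24 °C and 11.23 (2399-fold) at 4 °C, since leaf was lower by 0.93 and crown higher by 0.80, both close to the limit of 1. The same form was seen in wheat0130Contig8862, whose leaf arrays read -4.31, -4.33 (24 °C), -5.18 and -5.25 (4 °C) and whose crown arrays read 5.02, 5.01 (24 °C), 5.58 and 5.61 (4 °C). It was milder in MUG026D08R990620, at -4.53, -4.61, -4.99 and -4.84 in leaf and 4.96, 4.89, 5.67 and 5.70 in crown, in the same order of arrays.

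The remaining 4 of the 10 widest separations by that measure had leaf levels that were higher, not lower, at 4 °C. For wheat0130Contig11473 they were -4.15 and -4.10 at 24 °C against -3.23 and -3.20 at 4 °C, with crown at 5.57, 5.55, 6.21 and 5.94, so that its tissue difference was 9.69 at 24 °C and 9.29 at 4 °C. MUG018D03R990530 had -4.22, -4.41, -3.69 and -3.67 in leaf and 5.06, 4.99, 5.47 and 5.53 in crown. MUG024F02R990620 had -4.31, -4.20, -3.97 and -3.78 in leaf and 5.06, 5.02, 5.23 and 5.35 in crown. In these 3 probes the leaf arrays at the different temperatures did not overlap, and crown was 572-fold to 824-fold higher than leaf. Contig wheat0130Contig8894 had the smallest leaf change of the 4 (0.15), at -4.50, -4.57, -4.34 and -4.42 in leaf and 4.95, 4.87, 5.19 and 5.22 in crown. Its arrays at 4 °C still lay above those at 24 °C in both tissues.

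Cold changes were smallest in clone MUG024G03R990620, with leaf levels of -1.22, -1.29 (24 °C), -1.20 and -1.36 (4 °C) and crown levels of 5.80, 5.72 (24 °C), 5.84 and 5.78 (4 °C). It is the only member whose 24 °C and 4 °C arrays overlapped in both tissues, and crown was 129-fold and 136-fold above leaf. Next was wheat0130Contig3565, at -2.38, -2.42, -2.37 and -2.19 in leaf and 6.20, 6.28, 6.29 and 6.38 in crown, with cold changes of 0.12 and 0.10 and a tissue difference of 400-fold and 393-fold. The leaf signals of both lay well clear of the detection limit.

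A small mean change did not always mean close replicates. The leaf arrays of wheat0130Contig5473 read -4.52 and -4.53 at 24 °C but -5.51 and -3.83 at 4 °C, a mean of -4.67 ± 1.19 (SD, n = 2), so that its leaf change of -0.15 is far smaller than the spread between the cold arrays. Its crown levels were 3.15, 3.16, 3.44 and 3.39. For wheat0130Contig7845 the cold leaf arrays read -5.13 and -4.53, against -4.75 and -4.58 at 24 °C, with crown at 4.42, 4.37, 4.76 and 4.58. In wheat0130Contig10251 the arrays read -2.89, -3.19, -2.82 and -2.77 in leaf and 4.36, 4.32, 4.00 and 4.14 in crown, with a mean change of 0.25 in leaf and -0.27 in crown. Its control leaf arrays lay farther apart from each other than the leaf means of both temperatures.

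The 5 members with the highest crown signal were wheat0130Contig3565, wheat0130Contig279, wheat0130Contig8127, wheat0130Contig12364 and wheat0130Contig67. In leaf wheat0130Contig279 read -2.67, -2.45 (24 °C), -2.52 and -2.50 (4 °C), and in crown 5.84, 5.77 (24 °C), 6.41 and 6.44 (4 °C). Leaf signals of wheat0130Contig8127 were -3.03, -2.89, -2.17 and -2.21, and its crown signals were 5.76, 5.71, 6.50 and 6.41. Both tissues were thus higher at 4 °C for this probe, by 0.77 in leaf and 0.72 in crown, which left the tissue difference at 414-fold and 401-fold. The leaf level of wheat0130Contig12364, at -0.35, -0.49, -0.10 and -0.14 across the arrays, stood well clear of the detection limit, and with crown at 6.03, 6.05, 6.14 and 6.11 its tissue difference was 88.1-fold and 75.7-fold.

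Near the minimum of 6 the choice of members turned on small amounts. Just inside it lay wheat0130Contig11894 (smaller tissue difference 6.01), MUGEST2003_23lib_Contig10116_101 (6.01) and MUG014F10R990617 (6.09). Just outside lay wheat0130Contig5961, MUG018H12R990610 and MUGEST2003_23lib_Contig20149_220, each at 5.99. Over the whole set of members the median absolute difference between the leaf arrays of a group was 0.14 at 24 °C and 0.08 at 4 °C.

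Arrays of a group agreed more closely in crown than in leaf for these probes. The median absolute difference between the arrays was 0.05 in crown at 24 °C and 0.06 at 4 °C, and 0.14 in leaf at 24 °C and 0.08 at 4 °C, against 0.07, 0.06, 0.09 and 0.08 over the 24596 probes. No member differed by more than 0.5 between the crown arrays of a group, whereas 3 did in leaf at 24 °C and 5 in leaf at 4 °C. The widest gaps were those of wheat0130Contig5473 in cold leaf (1.68) and MUG001G01R990520 in leaf at 24 °C, which read -3.14 and -4.05 (0.91 apart).

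Within the limit of 1, the cold changes were not spread evenly in crown. Mean crown level was higher at 4 °C for 62 of 73 members (84.9%) and lower for 11. The median crown change was 0.58 (1.49-fold), with a range from -0.85 to 0.99. Over the 24596 probes the median crown change was 0.12, and 54.9% were higher at 4 °C. Over the 12180 probes with both cold changes within 1 the median was also 0.12, and 57.8% were higher. In leaf 33 members (45.2%) were higher and 40 lower, with a median of -0.10 and a range from -0.99 to 0.91. The leaf median was -0.12 over the 24596 probes, of which 44.8% were higher. It was 0.0029 over the 12180, of which 50.2% were higher.

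By single arrays, both cold crown arrays lay above both crown controls for 60 members (82.2%) and below them for 9 (12.3%), where 51.5% and 41.5% of the 24596 probes did so. In leaf both cold arrays lay above both controls for 30 members (41.1%) and below them for 28 (38.4%), where the same held for 40.4% and 50% of the 24596 probes. Over the 12180 probes with both cold changes within 1, the shares above and below were 52.9% and 37.1% in crown. In leaf they were 44.0% and 42.6%. The rule used these contrasts. On the same count both tissues were higher at 4 °C for 24 members (32.9%), where 24.9% of the 12180 probes with both cold changes within 1 were. Both were lower for 5 (6.85%), against 17.5% of the 12180. Leaf was lower while crown was higher for 23 (31.5%), against 20.5% of the 12180.

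In the wider set of 227 probes with the tissue difference at both temperatures, whatever their cold change, 191 (84.1%) had a higher mean crown level at 4 °C and 94 (41.4%) a higher mean leaf level, where 54.9% and 44.8% of the 24596 probes did. The 227 hold the 73 members and were chosen on the same array values, so they give no separate support. The limits on cold change, which 12180 of the 24596 probes met, left 32.2% of the 227. Among the 154 beyond the limits, the crown change exceeded 1 for 88 probes and was under -1 for 8, and the leaf change exceeded 1 for 43 and was under -1 for 70, with some probes counted in both tissues.

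Members with lower crown levels at 4 °C were few. The largest such change was that of wheat0130Contig13193, whose crown arrays read 4.61, 4.53 (24 °C), 3.69 and 3.76 (4 °C), a change of -0.85, while its leaf change was 0.48. Its tissue difference therefore shrank from 9.74 to 8.42, more than that of any other member. In wheat0130Contig4662 crown read 2.57, 2.59, 1.89 and 1.91, a change of -0.68. For MUGEST2003_23lib_Contig10116_101 the crown arrays gave 1.20, 1.16, 0.61 and 0.62 and the leaf arrays -4.97, -5.01, -5.46 and -5.33, so that both tissues were lower in the cold. Clones and contigs MUG014F10R990617, wheat0130Contig3765 and wheat0130Contig8390 were likewise lower on both cold arrays of each tissue, by 0.40 to 0.44 in crown and 0.34 to 0.40 in leaf.

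How far these directions depend on the scaling differed between the tissues. In crown the median cold change of the 73 probes exceeded that of the 24596 probes under each of 7 alternative scalings or sources, and 59 to 73 members were higher at 4 °C. In leaf the median was -0.61 with a normexp background correction and 0.30 with scaling to 7 spike-in controls, and the members higher at 4 °C numbered from 8 to 55. The leaf median of the 24596 probes moved too, to -0.28 with that normexp correction, 0.11 with median scaling and 0.01 with quantile normalization. How many of the 24596 were higher at 4 °C was not counted under these scalings. Scaling to the spike-ins moved the median of all 24596 probes in crown to 1.12 and in leaf to 0.28, so its values are read against those shifts. Which way the leaf levels leaned thus depended on the scaling.

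The probe names, which the rule did not use, were not distributed as on the array as a whole. Of the 73 members 45 were contigs of the wheat0130 assembly, 22 were single clones of the MUG series, 2 each were MUGEST2003 and whfl_all contigs, and there was 1 wh clone (whdl17i17) and 1 yNPF clone (yNPF2022pBST3). MUG clones made up 30.1% of the members but 3.48% of all probes and 4.38% of those well above background on all 8 arrays. Clones of the wh series made up 1.37% of the members and 32.6% of all probes, and MUGEST2003 contigs 2.74% and 20.1%.

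Signal strength went with these names. Among the 3038 probes at least as bright in crown as all but the dimmest 10% of the members, 16.2% were MUG clones and 59.5% wheat0130 contigs, the latter close to the 61.6% of the members. The share of MUG clones grew with crown level over the 24596 probes, from 2.33% below a level of 0 to 30.6% at 5 or above. In that brightest class 14 of 32 members were MUG clones, and between 4 and 5 it was 4 of 20 members, where 22.8% of all probes were. Counts per class are small, and the part of brightness in the share of MUG clones was not tested further.

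Probes of the mirror pattern, at least 6 higher in leaf than in crown at both temperatures with cold changes within 1, numbered 22, and none of them was a MUG clone. There, 7 (31.8%) were whsh_all contigs, of which the crown set had none, while whsh_all contigs made up 2.57% of all probes. Among the 2581 probes at least as bright in leaf as all but the dimmest 10% of these 22, 10.9% were MUG clones and 13.7% whsh_all contigs. What the name series stand for, such as the tissue of the cDNA library, is not stated in the files.

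Values of the MUG clones and wheat0130 contigs within the set were not tested against each other. Crown minus leaf had a median of 8.64 at 24 °C and 9.16 at 4 °C for the 22 MUG clones and of 7.92 and 8.47 for the 45 wheat0130 contigs. The median crown change in the cold was 0.55 and 0.58, with 21 of 22 and 36 of 45 probes higher at 4 °C. The ranges of both kinds overlapped in each of these values.

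The rule itself makes the members alike over the 8 arrays, through the large step between tissues and the small cold changes, so likeness among them is a description only. After each probe was centred on its own mean, a pair of members differed on its most different array by a median of 1.13, but 45 of 2628 pairs stayed within 0.3 on every array, and 44 members had at least 1 such partner. Closest were MUG018C06R990528 and wheat0130Contig8127, which differed by at most 0.10 on any array, followed by MUG014F10R990617 and MUGEST2003_23lib_Contig10116_101 (0.12), whdl17i17 and wheat0130Contig13512 (0.12), wheat0130Contig279 and wheat0130Contig9098 (0.14), and MUG016B06R990620 and wheat0130Contig8618 (0.14). No sequences were analysed here, and whether any of these pairs carry the same transcript was not tested.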

How the data were processed

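RNA of each sample was labelled with Cy3 and hybridised to a 1-colour Agilent oligonucleotide array. The deposited scanner output, per the file headers, gives background-subtracted intensity values and flags of kind other (0 or 1 per spot, class and place of the spot) made by Agilent Feature Extraction 9.5.3.1 (leaf at 24 °C), 10.5.1.1 (both groups at 4 °C) and 10.7.3.1 (crown at 24 °C). Version 9.5 is the one named in the submitters' processing notes. The authors also deposited a table of scaled intensity, whose scaling is not stated.

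Here the processed signal of the 37826 probes (1417 control spots set aside) was taken to log2, reduced by the 75th percentile of its array and averaged by group (Python 3.11.15, pandas 2.3.3). Alternatives used limma 3.58.1 in R 4.3.3; normexp had an offset of 50 and was run on median spot signals, as mean spot signals are not among the columns. The code of the rule was run on simulated probes set far above or far below the minimum, which checks the code and says nothing about the members. The members, lists and named probes were chosen with earlier results of these data known. The planned limma test on other probes of the members' contigs was not run, since the match by name found no such probe. Named are the 10 widest tissue differences (by the smaller of those at both temperatures), the 5 smallest cold changes, the 5 brightest in crown and the 3 on either side of the minimum; others were named after their values were seen. Spike-in scaling, cyclic loess, normexp with quantiles and the choice on single replicates were added after the data were seen.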

Additional observations from a re-analysis of the deposited data

Results flagged for a closer look

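In 23 members both cold arrays lay below both controls in leaf and above both controls in crown, and in 3 the reverse held, which is 31.5% and 4.11% of the members, where 20.5% and 15.1% of the 12180 probes with both cold changes within 1 did the same; the difference between the tissues was not tested, since the rule used these values. The 23 include MUG002A03R990520, wheat0130Contig67 and yNPF2022pBST3, and the 3 are wheat0130Contig10251, wheat0130Contig13193 and wheat0130Contig8489. The crown change of wheat0130Contig8489 was -0.05. Weeks at 4 °C, plant age and scan day differ between the tissues and cannot be told apart from tissue here.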

How the results depend on the processing

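No paired analysis was possible because the results come from no test. The rule found 39 probes, 10 of them among the 73, with scaling to spike-in controls, 153 with no detection filter or with detection in 1 group, 110 with a minimum of 5, 20 with a cold limit of 0.5, and 52 to 82 under the other alternatives; 50 of the 73 met the rule under all of median scaling, quantile normalization, cyclic loess and the authors' table. With the members held fixed, crown minus leaf at 24 °C and 4 °C was 8.29 and 8.34 with the median (leaf and crown cold change 0.13 and 0.48), 8.15 and 8.30 with quantiles (leaf 0.28), 6.84 and 8.19 with normexp and the 75th percentile (leaf -0.61, crown 0.64), 6.97 and 7.52 with normexp and quantiles (leaf 0.18), 9.48 and 10.45 with spike-ins (leaf 0.30, crown 1.57), and 8.21 and 8.50 with the authors' table (leaf -0.029); it was 8.84 at 4 °C with cyclic loess. Leaving out 1 array in turn gave 8.26 to 8.39 at 24 °C and -0.12 to -0.031 for the leaf change. The cause of these moves was not tested. Of 80 probes that met the rule on the arrays of replicate 1 alone, 61 also met it on those of replicate 2, and of 71 chosen on replicate 2, 61 met it on replicate 1. These counts describe how far the arrays of a group repeat each other. Both choices held the same differences in scan day and weeks at 4 °C, so they give no separate support. Leaf signals within 1 of the detection limit, as 8 and 10 of the members had on the control leaf arrays, limit the precision of those folds.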

Other observations

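Probes at least 6 higher in leaf than in crown at both temperatures, whatever their cold change, numbered 84, against 227 for the crown. Of the 84, the leaf change exceeded 1 in 3 (3.57%) and was under -1 in 36 (42.9%), where 10.5% and 20.5% of the 24596 probes well above background throughout did so. Of the 227, the crown change exceeded 1 in 88 (38.8%) and was under -1 in 8 (3.52%), where 17.1% and 15.6% of the 24596 did so. Both sets were picked on these array values and no test was made, and cold leaf and cold crown differed in weeks at 4 °C and in plant age. Among the 84, 26 were whsh_all contigs and none was a MUG clone. Among the 227, 3 were whsh_all contigs and 59 MUG clones.

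Only wheat0130Contig13193, wheat0130Contig15383 and wheat0130Contig8489 met the rule under each of the 7 alternative scalings and sources.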
